A study of Mus musculus with 5 samples.

Results

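Melanin is made inside melanosomes, lysosome-related organelles of pigment cells, and the 10 genes described here encode the proteins that make it, carry it and hold it. They were taken from the count table by symbol as a fixed list of melanin synthesis, melanosome structure and pigment transporter genes, without use of their values, and are 10 of the 56941 gene identifiers in the table. All 10 passed the minimum of 10 counts in at least 1 pool and are among the 19713 genes tested. Between the genotypes, the transporter gene Slc45a2 was 5.50-fold lower in DBA/2J than in Gpnmb+, the other 9 genes did not pass the test, and the 3 genes of the enzymes differed by at most 0.19 on the log2 scale.

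RNA was sequenced from the iridocorneal angle, the ring of tissue between iris and cornea that drains the aqueous humor, of untreated mice. By the sample labels the mice were 12 months old. The study lists males and females for each strain, although the Gpnmb+ pools held almost no Y-linked RNA. The DBA/2J group had 3 pools. DBA/2J mice carry the Tyrp1 b allele together with a premature stop codon in Gpnmb, and with age they develop iris pigment dispersion and high eye pressure. The Gpnmb+ group had 2 pools of the matched strain, which carries a functional Gpnmb and the same Tyrp1 b allele. Both strains also share the brown and dilute coat background, so no group here has a wild-type Tyrp1. The study describes 3 mice per pool, whereas the library labels name 3 animals for each pool of DBA/2J and 2 for each of Gpnmb+. The iris and ciliary body were removed at dissection, although by the study's methods remnants of both stayed on the ring. Each gene's RNA is summed over every cell in a pool, so fewer pigment cells and less RNA per pigment cell cannot be told apart.

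The pathway runs in a set order. Tyr oxidises tyrosine to dopaquinone, the rate-limiting step, and Dct and Tyrp1 act further down the eumelanin branch. Pmel forms the fibrils on which melanin is laid down, and Mlana is needed for Pmel to mature. Slc45a2, Oca2 and Slc24a5 are membrane transporters that set the pH and ion content of the melanosome, and loss of any of the 3 lightens pigment in mice and humans. Gpr143 is a receptor in the melanosome membrane that limits melanosome size, and Mlph links the small GTPase Rab27a to the motor Myo5a, which carries finished melanosomes outwards. In the anterior eye these genes are used both by the pigmented epithelia of iris and ciliary body, which come from the neural tube, and by melanocytes, which come from the neural crest.

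Totals per pool ran from 43900661 to 49837758 counts on genes. Gpnmb itself had 2042, 2234 and 1946 counts across DBA/2J pools 1 to 3, against 129659 and 110568 in Gpnmb+ pools 1 and 2, which matches the genotype labels. The pools also differed in sex-linked RNA and in the markers of neighbouring tissues, and those values stand beside the results they touch. Of all tested genes, 0.796% were called in either direction and 0.294% were called lower in DBA/2J, where a call is an adjusted p-value of at most 0.05 with a fold change of at least 1.5 in edgeR's quasi-likelihood test. The median log2 fold change over all tested genes was -0.02. A log2 fold change above 0 means more RNA in DBA/2J.

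The stretches of DNA just upstream of these genes are shown because Mitf, the master regulator of pigment cells, is known to act through a sequence called the M-box, whose core letters are TCATGTG. The search covered the 250 bases before the annotated start of 1 canonical transcript per gene, on both strands, in the GRCm39 reference, which is not the DBA/2J genome. The core was found for 5 of the 10 genes, and for 336 of the 15906 tested protein-coding genes (2.11%). The matches in Tyr, Tyrp1 and Dct read along the gene, and those in Mlana and Gpr143 read on the opposite strand. Each match is printed with its flanks in the direction in which the core reads, with the core in capitals.
Tyr, chr7:87142725-87142753, minus strand: gaaaaagttagTCATGTGctttgcagaag
Tyrp1, chr4:80752392-80752420, plus strand: tggggagggagTCATGTGctgcctagtag
Dct, chr14:118289792-118289820, minus strand: tgcacttagggTCATGTGctaacaaagag
Mlana, chr19:29674974-29674999, minus strand: aagtatttttaTCATGTGtctaatgt
Gpr143, chrX:151564628-151564656, minus strand: ctgtgacatctTCATGTGatgcccgagat
The unbroken run of letters identical with Tyr around the core was 11 long in Tyrp1 and 10 in Dct, and did not extend past the 7 letters of the core in Mlana and Gpr143. The core began 22 bases before the start of Tyr, 39 before Tyrp1 and 212 before Dct. The related letters TCACGTG, present in 3.62% of the same promoters, were found upstream of Mlph and of none of the other 9 genes. These matches are letters in a reference and were not shown to be bound.

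The whole window is given for the enzyme gene Tyr and for the transporter gene Slc45a2. Whether the core goes with the genotype differences of the 10 genes was not tested. Capitals again mark the core.
Tyr, chr7:87142721-87142970, minus strand: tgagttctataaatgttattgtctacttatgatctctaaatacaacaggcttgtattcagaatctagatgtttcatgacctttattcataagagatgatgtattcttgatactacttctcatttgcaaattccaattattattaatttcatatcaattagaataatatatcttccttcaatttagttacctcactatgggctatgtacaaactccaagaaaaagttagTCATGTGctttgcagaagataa
Slc45a2, chr15:11000553-11000802, plus strand: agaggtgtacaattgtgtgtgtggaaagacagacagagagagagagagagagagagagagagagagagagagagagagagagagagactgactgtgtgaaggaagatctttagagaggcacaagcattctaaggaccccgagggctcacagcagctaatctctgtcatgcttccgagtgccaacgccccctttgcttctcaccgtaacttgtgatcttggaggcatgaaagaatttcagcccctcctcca
Neither motif was found in this window of Slc45a2, nor in those of Pmel, Oca2 and Slc24a5, which says nothing of sites outside it.

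Levels differed widely among the 10 genes. Counts were scaled to CPM (counts on a gene for every 1000000 counts of the library) with TMM library sizes and divided by the length of each gene's combined exons in kilobases, so that genes can be compared. In DBA/2J the order from high to low was Dct, Tyrp1, Mlana, Pmel, Tyr, Mlph, Slc24a5, Oca2, Gpr143 and Slc45a2. The mean level was 373 ± 77.7 CPM per kilobase (SD, n = 3) for Dct at the top and 1.06 ± 0.33 (SD, n = 3) for Slc45a2 at the bottom. In Gpnmb+ the order was the same except that Slc45a2, at 5.81 ± 0.23 (SD, n = 2), stood above Gpr143, at 2.77 ± 0.017 (SD, n = 2). Within DBA/2J the pools of Dct and Tyrp1 overlapped, as did those of Pmel and Tyr, and within Gpnmb+ those of Mlana and Pmel overlapped. The pools of all other neighbours in the order did not overlap. Per length over all pools, Dct ranked 53 and Tyrp1 71 among the 19713 tested genes, and Slc45a2 ranked 8758 and Gpr143 9703. With the longest transcript as the length, 8 of the 10 genes kept their place in Gpnmb+, where Slc24a5 and Mlph changed places, and 6 did in DBA/2J, where Pmel and Tyr changed places as well.

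**Figure D1:**
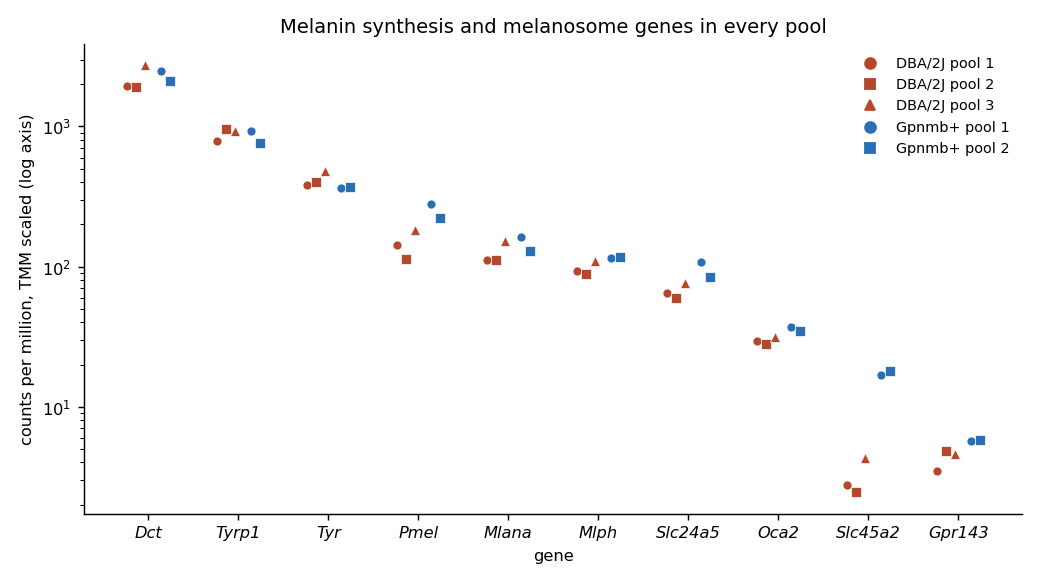
Each point is 1 pool, with CPM after TMM scaling on a log axis and the 10 genes ordered by their Gpnmb+ mean. Symbols give the pool number, red is DBA/2J (3 pools) and blue is Gpnmb+ (2 pools). Slc45a2 shows the widest gap, from at most 4.28 CPM in DBA/2J to at least 16.9 in Gpnmb+, whereas the points of Dct, Tyrp1 and Mlana interleave.

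Of the 3 enzyme genes 0 were called, and none had an estimated difference above 0.19 on the log2 scale in either direction. Tyr had 380, 398 and 478 CPM across DBA/2J pools 1 to 3, against 365 and 368 in Gpnmb+ pools 1 and 2. It was the only gene of the 10 whose DBA/2J pools all lay above the Gpnmb+ pools, which 17.3% of all tested genes did. Its log2 fold change was 0.19 (standard error 0.12, 95% interval -0.11 to 0.49, edgeR adjusted p = 0.504).

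Tyrp1, which both strains carry as the b allele, had 786, 953 and 924 CPM in DBA/2J against 923 and 765 in Gpnmb+. The pools overlapped, and the log2 fold change was 0.07 (standard error 0.14, interval -0.26 to 0.41, edgeR adjusted p = 0.840). Counts on the gene do not show which allele was read. Dct, the most abundant of the 10, had 1958, 1914 and 2728 CPM in DBA/2J against 2492 and 2125 in Gpnmb+. Its highest value was in a DBA/2J pool and its lowest in another, so the groups overlapped (log2 fold change -0.07, interval -0.54 to 0.40, edgeR adjusted p = 0.897). The signs for Tyrp1 and Dct are not fixed: Tyrp1 turned to -0.06 without Gpnmb+ pool 2, and Dct to values from 0.01 to 0.05 without DBA/2J pool 1, DBA/2J pool 2 or Gpnmb+ pool 1. The interval of Dct was the widest of the 3 enzymes.

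Of the matrix genes, Pmel lay lower in every DBA/2J pool and Mlana did not. Pmel, the fibril protein, had 143, 113 and 183 CPM in DBA/2J against 279 and 222 in Gpnmb+. The groups did not overlap, a separation in this direction that 17.2% of all tested genes showed. The fold was 1.71 in favour of Gpnmb+ and the log2 fold change was -0.77 (standard error 0.21, interval -1.29 to -0.26), with an unadjusted p of 0.0101 and an edgeR adjusted p of 0.164. DESeq2's Wald test, which called 1.94% of all tested genes lower in DBA/2J, gave an adjusted p of 0.0174 for Pmel and so called it. With the pool number as a block in edgeR, the value was -0.97 (adjusted p = 0.0310). In that fit DBA/2J pool 3, the highest of its group, is alone in its block and adds nothing to the genotype estimate. Leaving that pool out, without a block, also gave -0.97, but no call (edgeR adjusted p = 0.164). Pmel shares 442 exon bases with Dgka and 34 with Cdk2, both on the opposite strand. Whether the counting used strand is not given in the sources used here. Dgka was not called either, with a log2 fold change of -0.38 (edgeR adjusted p = 0.133).

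Mlana, the partner of Pmel, had 110.9, 111.0 and 151 CPM in DBA/2J against 162 and 129 in Gpnmb+. DBA/2J pool 3 lay between the Gpnmb+ pools, and the log2 fold change was -0.23 (interval -0.66 to 0.20, edgeR adjusted p = 0.583).

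The transporter genes held the only call. All 3 had every DBA/2J pool below every Gpnmb+ pool (17.2% of all tested genes), and 1 of 3 was called (0.294% called lower among all tested genes). Slc45a2, a transporter that raises melanosome pH, had 122, 105 and 191 counts across DBA/2J pools 1 to 3, against 857 and 873 in Gpnmb+. In CPM these were 2.74, 2.45 and 4.28 against 16.9 and 17.8. The highest DBA/2J pool was thus far below the lowest Gpnmb+ pool. The log2 fold change was -2.46 (standard error 0.25, interval -3.07 to -1.85, edgeR adjusted p = 0.0262), and DESeq2 gave an adjusted p of 2.03e-15. Leaving out DBA/2J pool 1, DBA/2J pool 2 or Gpnmb+ pool 2 kept the value between -2.42 and -2.30 but raised the adjusted p to 0.117, 0.0906 and 0.110, and the number of genes called over the whole table then fell from 157 to 6, 1 and 2. Slc45a2 has 1 annotated transcript, spans chr15:11000803-11029319 on the plus strand, and overlaps no other annotated gene.

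Slc24a5, a potassium-dependent sodium-calcium exchanger of pigment cells, had 64.9, 59.3 and 76.4 CPM in DBA/2J against 108 and 84.1 in Gpnmb+. The gap between the closest pools was small, and the log2 fold change of -0.52 (standard error 0.15, interval -0.90 to -0.15) had an unadjusted p of 0.0135 and an edgeR adjusted p of 0.184. Its exons share 1698 bases with Myef2 on the opposite strand, and Myef2 had a log2 fold change of 0.10 (edgeR adjusted p = 0.734). Oca2, a chloride channel that acts on melanosome pH, had 29.6, 27.8 and 31.3 CPM in DBA/2J against 36.9 and 34.7 in Gpnmb+. Its pools were the tightest of the 10 in DBA/2J, with the highest 1.13 times the lowest. The log2 fold change was -0.27 (standard error 0.09, interval -0.50 to -0.05, unadjusted p = 0.0260, edgeR adjusted p = 0.249).

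Gpr143 and Mlph also lay lower in every DBA/2J pool, as 17.2% of all tested genes did, and 0 of 2 were called. Gpr143 had 154, 209 and 205 counts in DBA/2J against 291 and 283 in Gpnmb+, which is 3.46, 4.87 and 4.60 CPM against 5.74 and 5.79. The log2 fold change was -0.42 (standard error 0.20, interval -0.90 to 0.06, edgeR adjusted p = 0.370). Gpr143 is the X-linked gene of the list, and the pools differed in sex-linked RNA. The Y-linked helicase gene Ddx3y had 3608, 4168 and 1567 counts in DBA/2J against 0 and 4 in Gpnmb+, and Xist, the RNA of the inactive X, had 596, 0 and 2417 against 7843 and 9152. Although males and females are listed for both strains, the Gpnmb+ pools held almost no Y-linked RNA, so sex and genotype cannot be told apart for any gene here. Mlph, the melanosome transport adaptor, had 92.4, 89.1 and 109.6 CPM in DBA/2J against 115 and 117 in Gpnmb+. That is a log2 fold change of -0.26 (standard error 0.11, interval -0.53 to 0.01, edgeR adjusted p = 0.328).

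**Figure D2:**
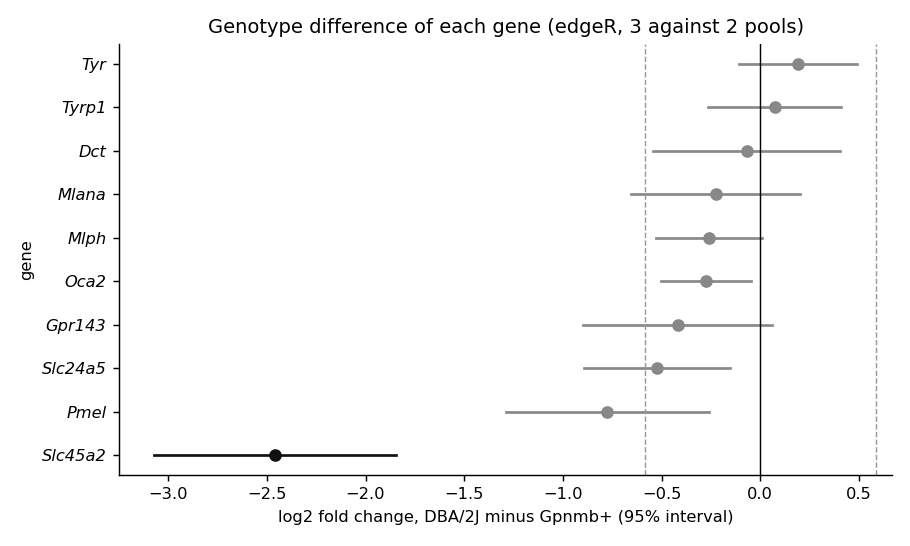
Log2 fold change of each gene, DBA/2J minus Gpnmb+ (x axis), from edgeR over 3 against 2 pools. Points are estimates, lines are 95% intervals, dashed lines mark a fold of 1.5 and black is the called gene. Slc45a2, at -2.46, lies apart from the other 9, which run from -0.77 for Pmel to 0.19 for Tyr.

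Over the list, 1 of 10 genes was called, beside 0.796% of all tested genes. A log2 fold change below 0 was found for 8 and above 0 for 2. Of the 19713 tested genes, 10363 lay below 0 and 9350 above. The median was -0.27 against -0.02 for all tested genes. Without Slc45a2 the median was -0.26. The pools did not overlap for 6 genes that were lower in DBA/2J (17.2% of all tested genes) and 1 that was higher (17.3%), and overlapped for 3. An unadjusted p under 0.05 was found for 4 of the 10 and for 15.9% of all tested genes. Among DBA/2J pools, 8 of the 10 were highest in pool 3, as were 32.6% of all tested genes, and 6 were lowest in pool 2, as were 30.5%. Between the Gpnmb+ pools, 6 of the 10 were higher in pool 1, as were 49.9% of all tested genes. The highest pool of DBA/2J was 1.13 to 1.75 times the lowest, with a median of 1.33, and in Gpnmb+ the ratio was 1.01 to 1.29 with a median of 1.12.

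The summed level of the 10 genes was 3572, 3673 and 4690 CPM in DBA/2J against 4505 and 3868 in Gpnmb+. The pools overlapped, and the ratio of the means was 0.950 (two-sided exact permutation p = 0.6, where 3 pools against 2 allow no p below 0.2). Dct alone made up between 52.1% and 58.2% of the counts on the 10 genes in every pool. Without Dct the sums were 1614, 1759 and 1962 against 2012 and 1743, also overlapping, with a ratio of 0.947 (exact permutation p = 0.6). Slc45a2 made up 0.0768%, 0.0666% and 0.0913% of these counts in DBA/2J against 0.375% and 0.461% in Gpnmb+. The share of Tyr was 10.6%, 10.8% and 10.2% in DBA/2J against 8.11% and 9.51% in Gpnmb+.

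Relative to Tyr in the same pool, the list lay lower in DBA/2J. Of the other 9 genes, 8 had fewer counts per Tyr count in every DBA/2J pool than in any Gpnmb+ pool, a separation that 32.1% of all tested genes showed on this scale, and only Tyrp1 overlapped. Because Tyr was the gene whose pools lay higher in DBA/2J, this scale moves every gene downwards. Per 100 Tyr counts, Pmel had 37.6, 28.4 and 38.3 counts in DBA/2J against 76.3 and 60.3 in Gpnmb+. Slc45a2 had 0.722, 0.614 and 0.896 against 4.62 and 4.85. Dct, at 515, 481 and 571 against 682 and 577, was the narrowest separation of the 8.

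**Figure D3:**
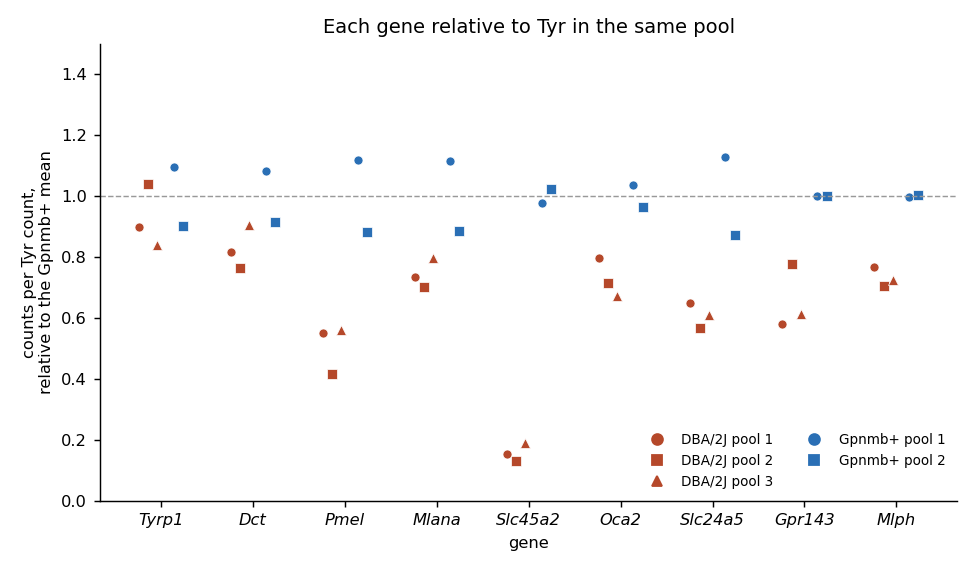
Counts of each gene per Tyr count in the same pool, divided by the mean of the 2 Gpnmb+ pools (linear axis from 0, dashed line at 1). Symbols give the pool number, red is DBA/2J and blue is Gpnmb+. Every DBA/2J point lies below both Gpnmb+ points except for Tyrp1.

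Other genes of the pigment pathway were listed by function. All 42 were tested, and 1 was called, Pax3, beside 0.796% of all tested genes. Of the 20 genes for melanosome biogenesis and cargo sorting, 0 were called, and their median log2 fold change was 0.02. The largest differences there were for Rab38, a small GTPase that delivers Tyr and Tyrp1 to melanosomes, at 0.84 (edgeR adjusted p = 0.0593), and for Bloc1s1, a subunit of the sorting complex BLOC-1, at -0.52 (adjusted p = 0.479). Rab38 had 2287, 2217 and 2240 counts in DBA/2J against 1651 and 1196 in Gpnmb+, without overlap.

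Among the 6 genes for melanosome movement, 0 were called and 5 had values below 0, with a median of -0.23. Myrip, which links Rab27a to a myosin, had a log2 fold change of -1.09 (edgeR adjusted p = 0.159) and Mreg, the product of the dilute suppressor gene, of -0.57 (adjusted p = 0.170). Of the partners of Mlph, Rab27a had -0.22, with every DBA/2J pool lower, and Myo5a, mutated by the dilute allele that both strains share, had 0.20, with overlapping pools. Neither was called. Of the 7 genes for ion, copper and thiol handling, 0 were called and 6 had values above 0, with a median of 0.15. Slc7a11, the cystine transporter whose loss limits red pheomelanin, had 7500, 7380 and 5214 counts in DBA/2J against 2957 and 1832 in Gpnmb+. These pools did not overlap, and the log2 fold change was 1.67 (standard error 0.26, edgeR adjusted p = 0.0543). Atp7b, a copper transporter, followed at 0.58 (adjusted p = 0.285).

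Of the 9 regulators of pigment cell identity, 1 was called, 7 had values below 0 and the median was -0.57. Pax3, a transcription factor of the neural crest and of melanocyte precursors, had 18, 16 and 27 counts in DBA/2J against 163 and 174 in Gpnmb+. That is a log2 fold change of -2.87 (standard error 0.28, edgeR adjusted p = 0.0262). Mc1r, the melanocortin receptor of melanocytes, had the next largest difference at -1.78 (adjusted p = 0.253), on only 9, 3 and 18 counts against 46 and 32. Mitf, which acts on the M-box, had 2374, 2494 and 3158 counts in DBA/2J against 3081 and 2799 in Gpnmb+. Those pools overlapped, and the value was 0.04 (adjusted p = 0.908). DESeq2, which called 4.7% of all tested genes in either direction, called 5 of the 42, namely Pax3, Sox10, Myrip, Rab38 and Slc7a11, and the edgeR value for Sox10, a neural crest factor, was -1.34 (adjusted p = 0.0571).

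**Figure D4:**
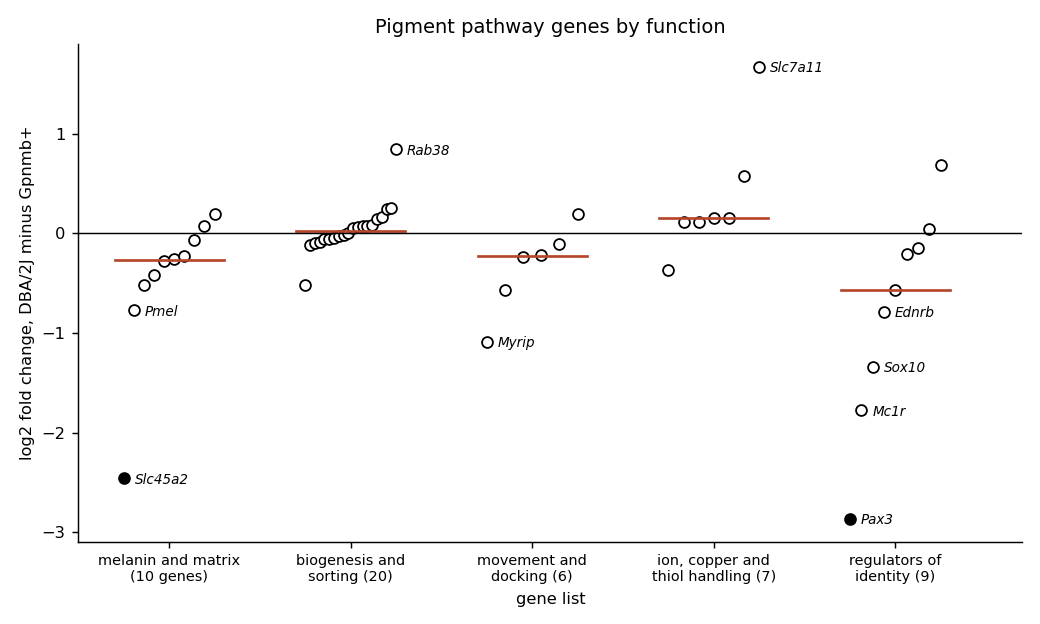
Log2 fold change (DBA/2J minus Gpnmb+, y axis) of the 10 genes and of 4 lists of other pigment pathway genes. Each circle is a gene, filled where called, and the red line is the list's median. Slc45a2 and Pax3 are the filled circles, at -2.46 and -2.87, and the 20 biogenesis genes lie around their median of 0.02.

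Markers of the cell types that could carry or dilute these RNAs also differed. The 8 markers of pigmented epithelium summed to 216, 316 and 338 CPM in DBA/2J against 330 and 770 in Gpnmb+, with 0 of 8 called and 7 below 0. All 8 markers had more CPM in Gpnmb+ pool 2 than in Gpnmb+ pool 1. Rgr had by far the largest difference in CPM, with 356 (17402 counts) in Gpnmb+ pool 2 against 110 (5558 counts) in Gpnmb+ pool 1. The sum of the 10 melanin genes, in contrast, was lower in Gpnmb+ pool 2 than in Gpnmb+ pool 1. Melanocyte lineage markers that are not melanin genes summed to 130, 153 and 112 CPM against 148 and 208. Kit was the largest part of each sum, at 76.7, 122 and 72.4 CPM in DBA/2J against 77.2 and 124 in Gpnmb+, with overlapping pools. For 4 of the 5 tested markers, every DBA/2J pool lay below every Gpnmb+ pool (17.2% of all tested genes). The same held for 4 of the 8 markers of pigmented epithelium, so this separation was not particular to the melanocyte list. Of the 5 tested all lay below 0 and 1, Pax3, was called, and Mia was at 0 or 1 count in every pool. Both of these lists overlap with genes that other cell types of the region express.

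Schwann cell markers, which share Sox10 with melanocytes, summed to 323, 374 and 345 CPM in DBA/2J against 424 and 475 in Gpnmb+. For 6 of the 9 every DBA/2J pool lay below every Gpnmb+ pool, and for 1 above. S100b, a glial calcium-binding protein of that list, was called lower in DBA/2J at -2.04 (edgeR adjusted p = 0.0262). Markers of nonpigmented ciliary epithelium went the other way. They summed to 999, 1137 and 1262 CPM against 377 and 212, and all 8 lay above 0. In DBA/2J 4 were called higher (0.502% of all tested genes), with log2 fold changes of 1.74 for Six6, 2.06 for Col9a1, 2.38 for Col9a2 and 2.07 for Mlc1. This list, like the other marker lists, was chosen with earlier results of these data known, so its calls are no separate evidence of a tissue difference. The part of tissue composition in the Slc45a2 and Pmel values was not tested.

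The 8 macrophage markers summed to 1092, 1049 and 805 CPM in DBA/2J against 881 and 755 in Gpnmb+, with 0 called. Macrophages of the anterior eye are known to take up shed pigment. The 6 smooth muscle markers, with 0 called, summed to 824, 793 and 687 against 972 and 759. The trabecular meshwork gene Myoc had 7106, 13989 and 9514 counts in DBA/2J against 22068 and 26147 in Gpnmb+. Those pools did not overlap, as for 17.2% of all tested genes in this direction. The log2 fold change of Myoc was -1.06 (edgeR adjusted p = 0.165, DESeq2 adjusted p = 0.00793). In edgeR, 3 of 6 meshwork markers were called, beside 0.796% of all tested genes: Cyp1b1 at 0.81, and Edn3 and Tfap2b at -0.86 and -1.43.

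The genes nearest in pattern to Slc45a2 and to Dct were sought among 15115 genes, by the root mean square difference of log2 CPM over the 5 pools after each gene's mean was removed. This is a description over 5 pools that share their libraries, and a small difference says nothing of shared control. Slc45a2 had the largest and Dct the smallest absolute log2 fold change of the 10. Nearest to Slc45a2 was Pax3, at a difference of 0.16. Syt4, a synaptotagmin, followed at 0.28, the sodium channel gene Scn8a at 0.29, Fndc3c1 at 0.30 and the cadherin gene Cdh23 at 0.32. The nearest of the other melanin genes, Pmel, was at 0.84. Scn8a had 62, 65 and 77 counts in DBA/2J against 294 and 420 in Gpnmb+. The 5 were matched to a pattern that holds the genotype difference of Slc45a2, so calls among them are no separate result. Fndc3c1 was not called (edgeR adjusted p = 0.123).

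Dct had closer neighbours. Paqr9 differed from it by 0.02, Dpp4, a cell-surface peptidase, by 0.03, Tex9 by 0.04, and Slc38a11, an amino acid transporter, and Slx4, a DNA repair scaffold, by 0.05 each. None of the 5 was called, which follows from matching them to a gene with almost no genotype difference. Mlana, at 0.08, was the nearest of the melanin genes to Dct. Both had their lowest values in DBA/2J pools 1 and 2.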

How the data were processed

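RNA-seq of 5 mouse iridocorneal pools was used. The authors enriched poly-A RNA (Kapa mRNA HyperPrep), used fastp for trimming and STAR for alignment to GRCm39, and summed the reads with a single genomic position over each gene. The table they deposited holds these raw counts. The counting strand is not given in the sources used here. Names came from GENCODE M39, which held 56323 of the 56941 identifiers.

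Genes reaching 10 counts in 1 pool or more were tested with edgeR 4.0.16 (R 4.3.3, limma 3.58.1; TMM, quasi-likelihood, Benjamini-Hochberg adjustment over all 19713), with no covariate. Python 3.11.15 and scipy 1.17.1 made tables and exact permutation tests. Scripts were tested on simulated data. P-values measure the spread between pools, not between mice.

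Named genes were the 10, Gpnmb, called genes of the lists, the 2 largest differences per pathway list, Xist, Ddx3y and 5 nearest genes each for Slc45a2 and Dct. Dgka, Cdk2, Myef2, Rab27a, Myo5a, Mitf, Sox10, Rgr, Myoc and Mia were added after their values were seen. The genes and lists were chosen with earlier results of these data known. Alternatives were DESeq2 1.42.0 and its size factors, limma-voom, 2 other filters, other call rules, a replicate block and each pool left out. Some results for marker genes are not reported here.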

Additional observations from a re-analysis of the deposited data

How the results depend on the processing

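Of 110 log2 fold changes of the 10 genes under alternatives, 101 kept their sign and their side of the threshold. The number of the 10 that were called was 2 with DESeq2, with the replicate block and with unadjusted p-values, and 0 to 1 with a pool left out. Genes called over the whole table went from 157 to 927 with DESeq2, 360 without the count filter and 1710 with unadjusted p-values, and lay between 1 and 217 with a pool left out. Other pigment pathway genes called went from 1 to 5 with DESeq2, 3 with limma-voom, 4 without the count filter, 3 with the replicate block and 7 with unadjusted p-values, and lay between 0 and 2 with a pool left out. Pmel was called at -0.77 (adjusted p = 0.0174) with DESeq2 and at -0.97 (adjusted p = 0.0310) with the replicate block. In the block fit DBA/2J pool 3 has no partner and does not enter the genotype estimate. With a pool left out, Slc45a2 ran from -2.74 to -2.30, with adjusted p-values up to 0.117. Tyrp1 ran from -0.056 (without Gpnmb+ pool 2) to 0.22, and Dct from -0.25 to 0.052 (0.0085 and 0.021 without DBA/2J pools 1 and 2, and 0.052 without Gpnmb+ pool 1). The log2 ratio of the summed level ran from -0.21 to 0.040, its only positive value being without Gpnmb+ pool 1. The cause was not tested. Without a Gpnmb+ pool, the lone remaining pool was assumed to vary like the DBA/2J pools.

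The pool numbers were not treated as pairing, since only 2 pairs exist and no label ties them. Deviations from the group means correlated at 0.28 for pools 1 and 0.25 for pools 2, and the replicate block changed no call of the 10 genes other than Pmel. Totals of 43900661 counts or more per pool leave the number of pools, and not depth, as the smaller sample, except for genes with few counts. Among those were Mc1r, with 3 to 46 counts, and Pax3, with 16 to 27 in DBA/2J.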
